A study of Mus musculus with 24 samples.

Results

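The 8 genes described here are interferon beta (Ifnb1), the chains of the receptors for type I interferon (Ifnar1 and Ifnar2) and for interferon gamma (Ifngr1 and Ifngr2), and the Janus kinases that these receptors carry (Jak1, Jak2 and Tyk2). They were taken by symbol, and all 8 had 1 row in each deposited table, out of 22996 genes in the table of bone marrow-derived macrophages (BMDMs) and 54380 genes in that of the J774.1 line. The set was chosen by measured values of the J774.1 line, namely less Ifnb1 and more interferon target RNA in the double knockout. That contrast is therefore described below without a test, and the tests concern the BMDMs.

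The study concerns CtBP1 and CtBP2, nuclear co-repressors that silence genes through DNA-bound partners. BMDMs, primary macrophages grown from the marrow of male C57BL6/N mice, carried Ctbp2 siRNA, Ctbp1 siRNA or control siRNA, short RNA duplexes of which the first and second lower the mRNA they are named for. Each siRNA was combined with 4 h of 100 ng/ml lipopolysaccharide (LPS), a component of the bacterial cell wall that activates macrophages, or with its vehicle (PBS). J774.1 is a macrophage cell line, and its cells were a Ctbp1/2 double knockout or wildtype, every library with LPS. There were 24 polyA RNA libraries in 8 groups of 3. The labels speak of biological triplicates and do not say whether these were separate mice or cultures, nor whether the knockout was 1 clone, so p-values measure the spread between these libraries.

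Values are TPM, a gene's length-corrected share of a library's transcripts. TPM carries no sequencing depth, so the counting error of a library is unknown. Ctbp1 stood at 48.1 to 59.4 TPM with Ctbp1 siRNA, against 117 to 143 TPM with control siRNA, and Ctbp2 at 10.4 to 20.4 TPM with Ctbp2 siRNA, against 36.9 to 54.2 TPM. In J774.1 cells Ctbp1 stood at 16.1 to 22.3 TPM in double knockout libraries, against 156 to 164 TPM in wildtype libraries. Ctbp2 stood at 61.5 to 64.1 TPM in double knockout libraries, against 74.4 to 81.4 TPM in wildtype libraries, and a transcript level does not show whether protein is made. Macrophage markers summed to 13067 to 15491 TPM over the BMDM groups, and to 2513 TPM in double knockout and 3102 TPM in wildtype J774.1 cells, where 7 of 9 markers exceeded 1 TPM. Single markers moved apart: Adgre1 averaged 15.8 TPM in double knockout cells and 225 TPM in wildtype, Fcgr1 79.8 and 25.4 TPM, and Itgam 47.7 and 19.4 TPM, and their part in the J774.1 differences was not tested. Markers of lymphocytes and NK cells and of mast cells summed to at most 0.355 and 0.236 TPM in any group. Those of plasmacytoid dendritic cells, a strong source of type I interferon, summed to 24.1 to 43.5 TPM, of which Tcf4, which is not confined to these cells, gave 22.4 to 42.5 TPM. Neutrophil markers summed to 72.3 to 101 TPM in BMDM groups and to at most 0.149 TPM in J774.1 groups. In BMDM groups S100a8 averaged 26.4 to 42.7 TPM and S100a9 36.0 to 51.2 TPM. Camp and Ltf averaged at most 5.84 TPM there, and Ly6g, Elane and Mpo at most 0.193 TPM. Stromal markers summed to at most 7.25 TPM, in Ctbp2 siRNA cells with LPS, of which Pdgfrb gave 7.19 TPM.

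Interferon beta is a secreted protein that macrophages make when the LPS receptor TLR4 signals through the adaptor TRIF and the kinases TBK1 and IKKε to the transcription factor IRF3, which acts together with NF-kB and AP-1 on the Ifnb1 promoter. Secreted interferon beta binds IFNAR1 and IFNAR2, whose kinases TYK2 and JAK1 phosphorylate transcription factors, among them STAT2, which joins IRF9 to switch on antiviral genes. Interferon gamma, made mainly by lymphocytes, binds IFNGR1 and IFNGR2, whose kinases JAK1 and JAK2 switch on genes with GAS sites. JAK2 and JAK1 also serve many other cytokine receptors.

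The promoter of Ifnb1 is the classic virus- and LPS-responsive one, and it is shown here because its sites are those at which the route from TLR4 ends. The sequence is that of RefSeq on GRCm38.p6, at chr4:88522859-88522965 on the minus strand, and runs from 171 to 65 bases before the annotated start. Capitals mark, from left to right, 3 half-sites of interferon regulatory factors (AANNGAAA), 1 NF-kB type site (GGGA, any 2 bases, TTCC) and a TATA box (TATAAA).
Ifnb1: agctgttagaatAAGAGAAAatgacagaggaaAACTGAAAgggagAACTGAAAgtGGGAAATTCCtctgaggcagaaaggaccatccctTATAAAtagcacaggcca

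The same motifs and a GAS type site (TTCNNNGAA) were searched on both strands in the 250 bases before the start of all 8 genes, all of which matched RefSeq by symbol, and of 32851 promoters in all. The half-site occurred in 21.3% of all promoters, the NF-kB type site in 1.21%, the GAS type site in 7.02% and the TATA box in 12.4%. Among the receptor genes, Ifngr2 held an NF-kB type site, read on the minus strand of chr16:91546972-91547005, and Ifnar2 a GAS type site in chr16:91372557-91372589. The windows of Ifnar1, Ifngr1, Jak1, Jak2 and Tyk2 held none of these strings. That of Jak2 was the richest of the 8 in G and C, with 80.8% and 37 CG dinucleotides, against 39.6% and 1 CG dinucleotide for Ifnb1. The sites of Ifngr2 and Ifnar2 are given in capitals with 12 bases on either side, and for Jak2, the gene of the set with the largest response to LPS, the 60 bases up to its start (chr19:29251743-29251802, plus strand) are given with CG in capitals.
Ifngr2: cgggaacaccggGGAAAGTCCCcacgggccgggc
Ifnar2: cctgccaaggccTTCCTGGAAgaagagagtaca
Jak2: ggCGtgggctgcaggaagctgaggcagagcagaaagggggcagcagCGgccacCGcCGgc
A string match describes these windows and does not show that a factor binds there.

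Ifnb1 was detected in all 9 LPS-treated BMDM libraries at about 1 TPM and was listed at 0 in all 9 vehicle libraries. With LPS it stood at 1.36, 0.652 and 0.814 TPM in Ctbp2 siRNA libraries, at 0.432, 1.77 and 1.20 TPM in Ctbp1 siRNA libraries, and at 1.94, 0.876 and 0.966 TPM in control siRNA libraries. The 3 groups overlapped, with means of 0.943 ± 0.373 TPM for Ctbp2 siRNA, 1.14 ± 0.672 TPM for Ctbp1 siRNA and 1.26 ± 0.591 TPM for control siRNA (SD, n = 3 each). No fold over vehicle is given, since the vehicle values are 0, and Ifnb1 was too low for the test, which took genes averaging 10 TPM or more over the libraries. In the authors' deposited table its mean normalized count over the BMDM libraries is 4.48. In the same deposited table of the authors, the LPS response of Ifnb1 has an adjusted p (DESeq2) of 0.000134 with Ctbp2 siRNA, 5.97e-05 with Ctbp1 siRNA and 3.84e-05 with control siRNA. With LPS the authors' deposited log2 fold change is −0.34 for Ctbp2 siRNA (unadjusted p = 0.658) and −0.16 for Ctbp1 siRNA (unadjusted p = 0.833), both against control siRNA, by DESeq2. In these bulk libraries, fewer cells that make interferon beta and less RNA per cell cannot be told apart.

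In J774.1 cells with LPS, Ifnb1 was far more abundant than in BMDMs and lower in the double knockout. It stood at 13.6, 11.7 and 13.5 TPM in double knockout libraries, against 36.4, 34.1 and 36.7 TPM in wildtype libraries. The groups did not overlap, with means of 12.95 ± 1.10 TPM in the double knockout and 35.7 ± 1.40 TPM in wildtype (SD, n = 3 each). The difference of the means of log2(TPM + 1) was −1.40, the 139th largest in size among the 7782 genes that averaged 10 TPM or more, and the authors' deposited table gives a log2 fold change of −1.52. The 2 tables were made separately, so the levels of BMDMs and J774.1 cells are set side by side only.

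Interferon beta was in effect the only ligand seen among the interferon genes listed. Of 20 other interferon genes (alpha, kappa, epsilon, zeta, gamma and lambda types), the BMDM table lists 3 and the J774.1 table all 20. The 3 listed for BMDMs (Ifnk, Ifnz and Ifng) averaged at most 0.041 TPM in a group, and in J774.1 cells none averaged above 0.054 TPM in a group. Interferon gamma (Ifng) was listed at 0 in all 6 J774.1 libraries.

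**Figure D1:**
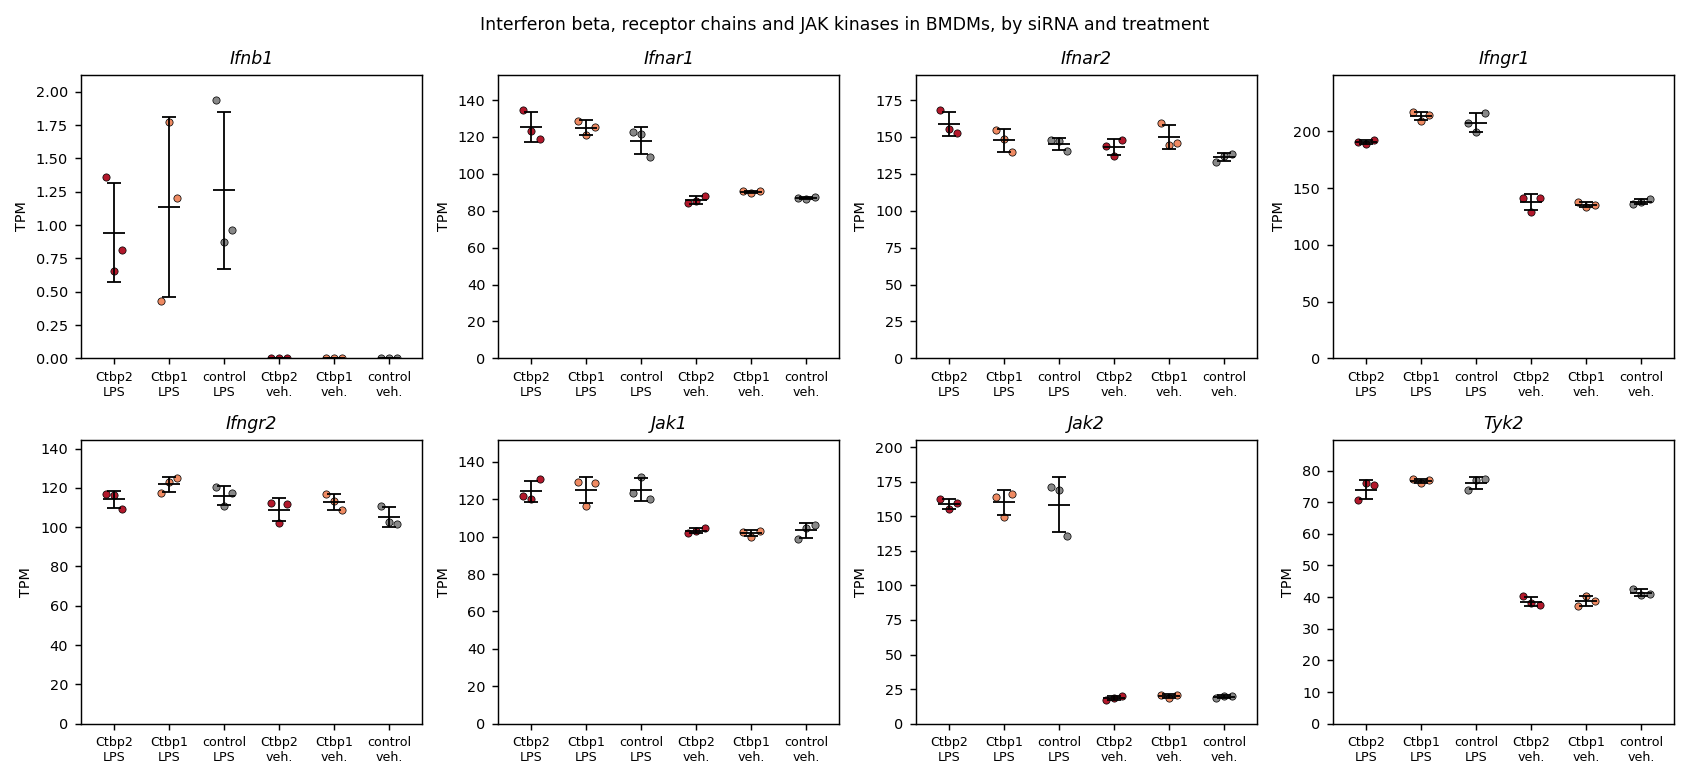
TPM of the 8 genes in BMDMs, from left to right with LPS and then vehicle, and within each with Ctbp2, Ctbp1 and control siRNA. Points are libraries, and bars give mean ± SD (n = 3 each). Jak2 stands at 135 to 171 TPM in every LPS library against 17.5 to 20.8 TPM in every vehicle library, while Ifnb1 is listed at 0 without LPS.

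The question of what LPS does to the receiving side was asked 3 times, with each siRNA. Jak2 was the gene of the set that responded most. With LPS it stood at 162, 155 and 160 TPM in Ctbp2 siRNA libraries, at 164, 150 and 166 TPM in Ctbp1 siRNA libraries, and at 171, 169 and 135 TPM in control siRNA libraries. With vehicle it stood at 17.5, 18.6 and 20.0 TPM, at 20.8, 18.7 and 20.7 TPM, and at 18.6, 20.2 and 20.1 TPM, for Ctbp2, Ctbp1 and control siRNA in that order. Every LPS library was above every vehicle library. The log2 fold change was 3.02 ± 0.08 with Ctbp2 siRNA, 2.93 ± 0.08 with Ctbp1 siRNA and 2.94 ± 0.08 with control siRNA (± SE; adjusted p = 1.51e-15, 2.37e-15 and 2.25e-15, limma). In control siRNA cells this 7.70-fold rise ranked 178th in size among 7918 genes tested.

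Tyk2, the kinase of IFNAR1, rose less. It averaged 76.0 ± 1.99 TPM with LPS and 41.4 ± 1.12 TPM with vehicle in control siRNA cells (SD, n = 3 each), a log2 fold change of 0.86 ± 0.05 (SE; adjusted p = 2.19e-11, limma). With Ctbp2 siRNA the log2 fold change of Tyk2 was 0.92 and with Ctbp1 siRNA 0.97 (adjusted p = 8e-12 and 4.96e-12, limma). Jak1, which serves both receptors, rose by 0.27 with Ctbp2 siRNA, 0.29 with Ctbp1 siRNA and 0.27 with control siRNA on the log2 scale (adjusted p = 9.7e-05, 4.33e-05 and 7.72e-05, limma). The library kit keeps no strand. On GENCODE's mouse annotation the span of Tyk2 overlaps an antisense gene (1700084C06Rik) and that of Jak1 overlaps Raver2 on the other strand. Only reads from sequence that such a pair shares could not be told apart by strand, and whether their exons overlap was not tested.

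Among the receptor chains the ligand-binding chain of the interferon gamma receptor and IFNAR1 responded, and their partners hardly did in TPM. Whether the partners count as raised depended on the scaling, as given below. Ifngr1 averaged 208 ± 8.47 TPM with LPS and 138 ± 2.44 TPM with vehicle in control siRNA cells, with a log2 fold change of 0.47, 0.65 and 0.59 for Ctbp2, Ctbp1 and control siRNA (adjusted p = 9.66e-09, 1.33e-10 and 6.02e-10, limma). Ifnar1 averaged 118 ± 7.42 TPM with LPS and 86.9 ± 0.482 TPM with vehicle in control siRNA cells, with log2 fold changes of 0.54, 0.46 and 0.43 in the same order (adjusted p = 2.36e-08, 2.03e-07 and 4.58e-07, limma). In these 3 comparisons every LPS library exceeded every vehicle library of its siRNA for both genes.

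Ifngr2 and Ifnar2 moved by at most 0.15. For Ifngr2 the log2 fold change was 0.07 with Ctbp2 siRNA, 0.11 with Ctbp1 siRNA and 0.14 with control siRNA (adjusted p = 0.222, 0.0619 and 0.0159, limma). For Ifnar2 it was 0.15, −0.02 and 0.09 in the same order (adjusted p = 0.0114, 0.69 and 0.1, limma). Reads of Ifnar2 may include those of Gm21970, an annotated read-through gene on the same strand. Whether these chains count as raised depended on the scaling. The median of all genes tested moved by −0.231, −0.188 and −0.211 with LPS in TPM, and by 0.124, 0.105 and 0.113 after median-of-ratios scaling, for Ctbp2, Ctbp1 and control siRNA. After that scaling all 7 genes were called higher with each siRNA. The authors' deposited table gives log2 fold changes (DESeq2) of 0.43, 0.41 and 0.47 for Ifngr2 and of 0.51, 0.28 and 0.42 for Ifnar2, in the same order. Their adjusted p (DESeq2) were 2.83e-12, 3.03e-11 and 1.12e-14 for Ifngr2 and 7.43e-14, 0.000101 and 1.09e-09 for Ifnar2.

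In all, 6 of the 7 genes tested rose with Ctbp2 siRNA, 5 of 7 with Ctbp1 siRNA and 6 of 7 with control siRNA, and none fell. Over all genes tested, 23.5%, 24.5% and 23.3% were called higher in these comparisons, 55.2%, 50.9% and 53.1% lower, and 78.7%, 75.4% and 76.4% in either direction. Ifnb1 is the eighth gene and was not tested. The call of Ifngr2 in control siRNA cells was lost without LPS replicate 1, vehicle replicate 3 or vehicle replicate 4 (adjusted p = 0.0689, 0.0531 and 0.0685, limma), and that of Ifnar2 in Ctbp2 siRNA cells without LPS replicate 1 or vehicle replicate 3 (adjusted p = 0.0718 and 0.0578, limma). The call of Ifngr2 in Ctbp1 siRNA cells was gained without LPS replicate 1 or vehicle replicate 1 (adjusted p = 0.0453 and 0.0447, limma).

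The order of the levels changed with LPS. In control siRNA cells with LPS the order was Ifngr1, Jak2, Ifnar2, Jak1, Ifnar1, Ifngr2, Tyk2 and Ifnb1, where Jak2 overlapped Ifnar2, Jak1 overlapped Ifnar1 and Ifnar1 overlapped Ifngr2. With vehicle it was Ifngr1, Ifnar2, Ifngr2, Jak1, Ifnar1, Tyk2, Jak2 and Ifnb1, where Ifngr1 overlapped Ifnar2 and Ifngr2 overlapped Jak1. Jak2 thus stood below Tyk2 with vehicle and above it with LPS, in 9 of 9 libraries each way.

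**Figure D2:**
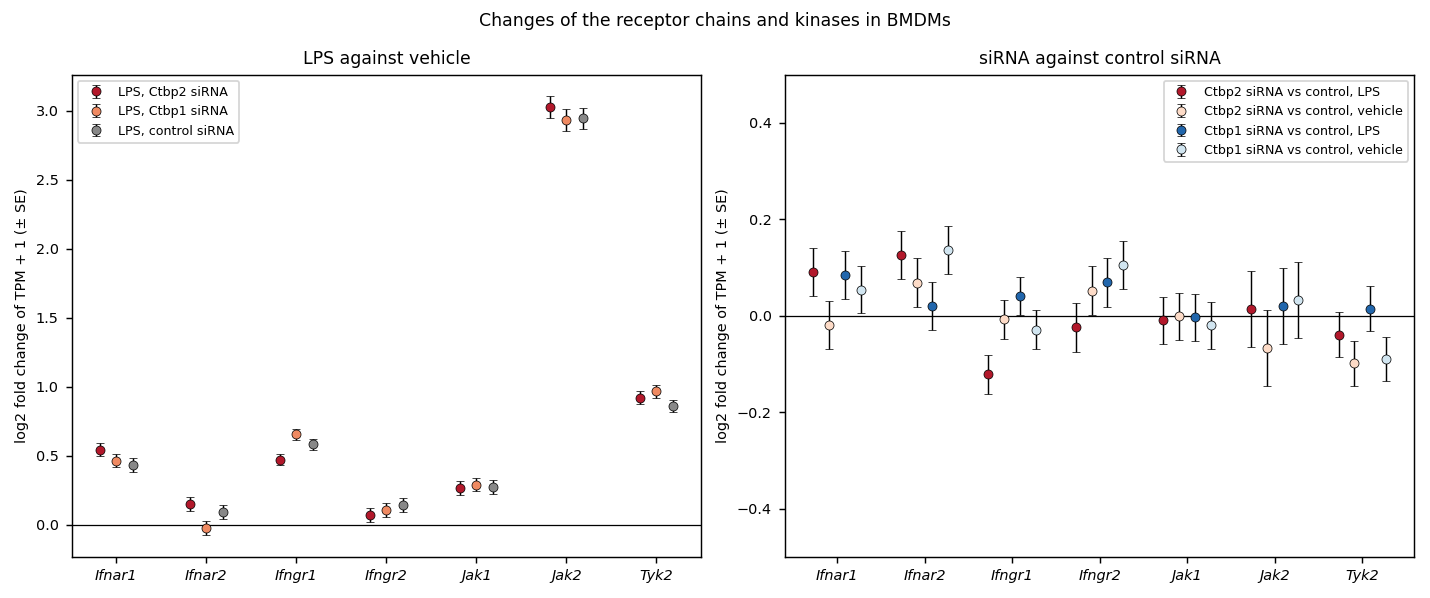
Log2 fold changes (TPM + 1) of the 7 genes tested in BMDMs, as limma coefficients ± SE. On the left LPS is set against vehicle for each siRNA and Jak2 stands near 3, and on the right each siRNA is set against control siRNA and all values lie within 0.14 of 0, on a narrower axis.

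The siRNA comparisons asked whether lowering Ctbp1 or Ctbp2 alone changes these genes. None of the 7 tested was called, by limma, with Ctbp2 siRNA in LPS, where 3.17% of all genes tested were called, or in vehicle, where 1.02% were. With Ctbp1 siRNA none was called in LPS or in vehicle either, where 0.152% and 0.215% of all genes were. At an unadjusted p under 0.05 the counts were 2, 1, 0 and 1 genes in the same order. The largest of the 28 log2 fold changes were 0.14 for Ifnar2 with Ctbp1 siRNA in vehicle and 0.13 for Ifnar2 with Ctbp2 siRNA in LPS (adjusted p = 0.34 and 0.175, limma). Jak2 differed from control siRNA by 0.01 and −0.07 with Ctbp2 siRNA in LPS and vehicle, and by 0.02 and 0.03 with Ctbp1 siRNA, each with an SE of 0.08.

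Ifngr1 had the lowest adjusted p of the 7 for Ctbp2 siRNA in LPS by limma, while in the authors' deposited table (DESeq2) this was Ifnar2 (0.20, adjusted p = 0.0538). Ifngr1 stood at 188 to 192 TPM in Ctbp2 siRNA libraries with LPS, against 209 to 217 TPM in Ctbp1 siRNA libraries and 199 to 216 TPM in control siRNA libraries. The Ctbp2 siRNA libraries lay below all of the others. Between the siRNAs in LPS its log2 fold change was −0.16 ± 0.04 (SE; adjusted p = 0.0248, limma), the only 1 of the 7 called, where 6.79% of all genes were called and 5.48% were lower. Against control siRNA it was −0.12 (adjusted p = 0.108, limma). In an alternative fit that took the replicate number as a block, Ifngr1 was called against control siRNA, as given at the end. The call between the siRNAs was lost after median-of-ratios scaling (−0.08, adjusted p = 0.306), and without Ctbp1 siRNA replicate 1 or 4 or Ctbp2 siRNA replicate 1 or 3 (adjusted p = 0.0658, 0.079, 0.0747 and 0.068, limma). In vehicle no gene of the set differed between the siRNAs (0.947% of all genes called, 0 of 7 at an unadjusted p under 0.05, limma).

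The LPS response itself was compared between siRNAs through an interaction term. None of the 7 genes was called for Ctbp2 siRNA (0.101% of all genes called, 0.0884% lower) or for Ctbp1 siRNA (0.0126%), and none had an unadjusted p under 0.05 (limma). For Jak2 the interaction was 0.08 ± 0.11 with Ctbp2 siRNA and −0.01 ± 0.11 with Ctbp1 siRNA (log2, ± SE; adjusted p = 0.929 and 0.997, limma).

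**Figure D3:**
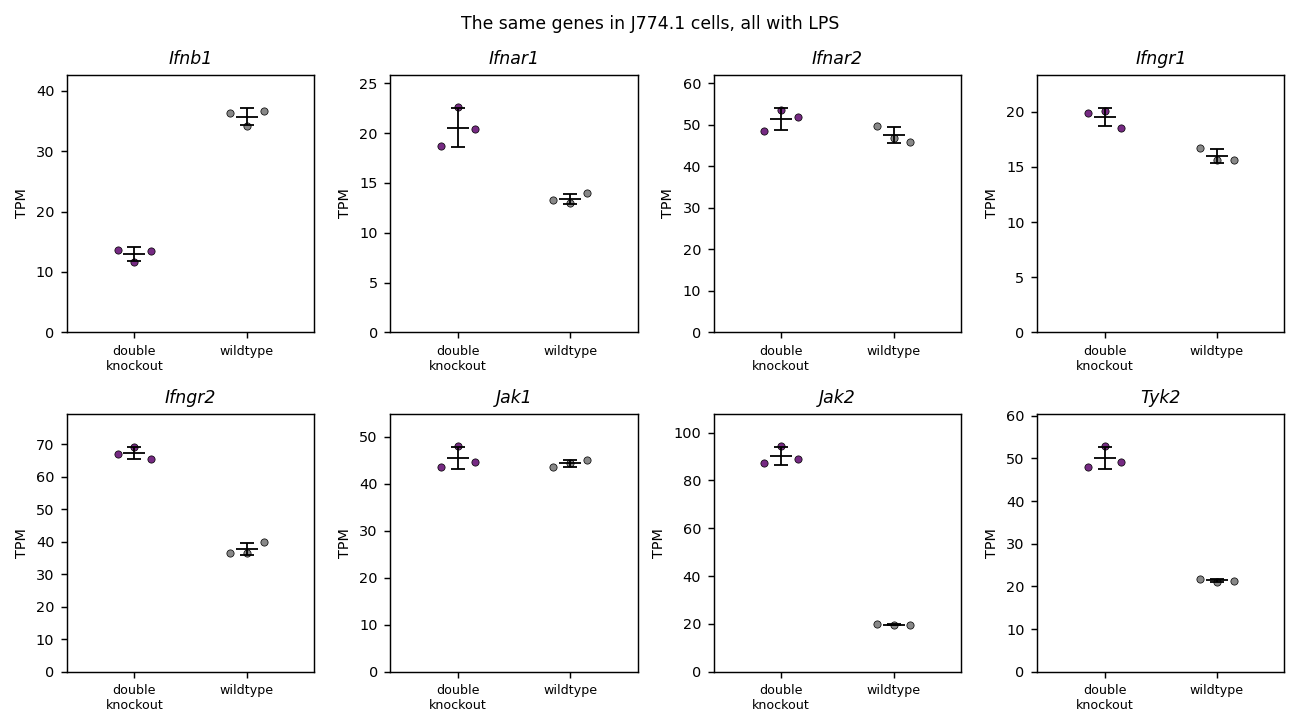
TPM of the 8 genes in J774.1 cells with LPS, double knockout left of wildtype. Points are libraries and bars give mean ± SD (n = 3 each). Jak2, Tyk2, Ifngr2, Ifnar1 and Ifngr1 are higher in the double knockout and Ifnb1 is lower, with no overlap, while Ifnar2 and Jak1 overlap.

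In the double knockout Ifnb1 was lower, Jak2, Tyk2, Ifngr2, Ifnar1 and Ifngr1 were higher, and Jak1 and Ifnar2 overlapped wildtype. Jak2 stood at 87.1, 94.2 and 89.0 TPM in double knockout libraries, against 20.0, 19.5 and 19.6 TPM in wildtype libraries, a log2 difference of 2.14 and the 51st largest in size of 7782 genes. Tyk2 stood at 47.9, 52.9 and 49.1 TPM in double knockout libraries, against 21.7, 21.1 and 21.3 TPM in wildtype libraries, a difference of 1.19. Jak1, in contrast, stood at 43.6, 48.0 and 44.6 TPM, against 43.6, 44.5 and 45.1 TPM in wildtype, and overlapped (0.03, and −0.03 after median-of-ratios scaling).

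Of the receptor chains, 3 were higher in the double knockout. Ifngr2 stood at 67.0, 69.0 and 65.4 TPM in double knockout libraries, against 36.7, 36.6 and 39.8 TPM in wildtype libraries (0.82 on the log2 scale). Ifnar1 stood at 18.7, 22.6 and 20.4 TPM in double knockout libraries, against 13.3, 13.02 and 13.9 TPM in wildtype libraries (0.58). Ifngr1 stood at 19.8, 20.1 and 18.6 TPM in double knockout libraries, against 16.7, 15.6 and 15.6 TPM in wildtype libraries (0.27). These 3 did not overlap, and Ifnar2 did, at 48.4, 53.7 and 51.9 TPM against 49.8, 46.9 and 45.9 TPM in wildtype (0.11).

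Thus 5 of the 8 genes were higher and 1 lower in the double knockout without overlap. Over all genes at a mean of 10 TPM or more, 32% were higher and 21.9% lower without overlap, 53.9% in all, and 2.33% were at least 2-fold higher and 0.784% at least 2-fold lower in this way. Jak2, Tyk2 and Ifnb1 belong to the last 2 classes. These shares are given for scale, since the contrast chose the genes. In double knockout cells Jak2 had the highest level of the 8 and Ifnb1 the lowest, while in wildtype cells Ifnar2 was highest, Ifnb1 the fourth (overlapping Ifngr2, the third) and Ifnar1 lowest.

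Ifnar2, Il10rb, Ifnar1 and Ifngr2 lie in this order on the plus strand of mouse chromosome 16 on GENCODE's annotation. Il10rb, the shared chain of the interleukin 10 and lambda interferon receptors, averaged 31.2 ± 1.69 TPM in double knockout cells and 20.2 ± 1.07 TPM in wildtype (SD, n = 3 each), without overlap. Of the 4 neighbours Ifngr2 differed most and Ifnar2 least in the double knockout. In BMDMs with LPS, Ifnar1 rose with each siRNA, while Il10rb fell by 0.33 in control siRNA cells (adjusted p = 1.03e-07, limma) and stood at 0.00072 after median-of-ratios scaling.

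**Figure D4:**
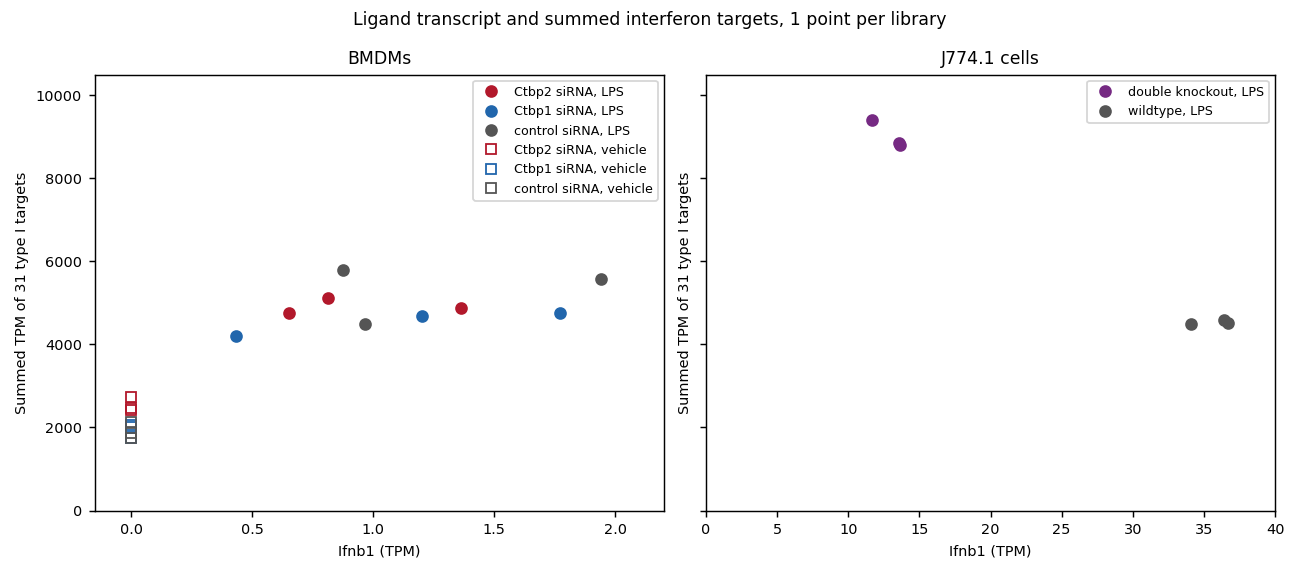
Ifnb1 (TPM, x axis) against the summed TPM of 31 type I interferon targets (y axis), 1 point per library, with BMDMs on the left and J774.1 cells on the right; the x axes differ. Double knockout libraries lie at the upper left of wildtype libraries, and vehicle BMDM libraries lie between 1735 and 2739 TPM of targets with Ifnb1 listed at 0.

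Interferon output was read from 31 genes that type I interferon switches on, such as Ifit1, Isg15, Rsad2 and Mx1, which code for antiviral proteins. In J774.1 cells their summed level was 8801, 9402 and 8840 TPM in double knockout libraries, against 4588, 4490 and 4511 TPM in wildtype libraries. The ligand transcript was lower and the target sum higher in every double knockout library. For each TPM of Ifnb1 the targets summed to 645, 805 and 653 TPM in double knockout libraries, against 126, 132 and 123 TPM in wildtype libraries. Both parts of this ratio belong to the contrast that chose the set, so its direction was given beforehand. In LPS-treated BMDM libraries the ratio was 2680 to 9709. Its divisor there was 0.432 to 1.94 TPM of Ifnb1, and vehicle libraries held 1735 to 2739 TPM of targets with Ifnb1 listed at 0. The BMDM ratio is therefore not set against that of J774.1 cells. Whether secreted protein, its timing or the receptors link ligand and targets was not tested.

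In J774.1 cells, 30 of the 31 targets averaged 10 TPM or more, and these 30 were higher in the double knockout without overlap. Their median log2 difference was 0.88 (0.27 to 6.80), against 0.03 over all genes, of which 32% were higher without overlap. Rsad2 averaged 216 ± 10.8 TPM in double knockout cells and 0.968 ± 0.367 TPM in wildtype (SD, n = 3 each). Ifit2 averaged 151 TPM in double knockout cells and 16.4 TPM in wildtype, Ifit3 187 and 31.7 TPM, and Ifit1 245 and 60.1 TPM. Mx1 averaged 22.0 TPM in double knockout cells and 2.51 TPM in wildtype. Cxcl10, a chemokine, averaged 1644 and 717 TPM, Isg15 830 and 482 TPM, and Irf7, which amplifies interferon production, 349 and 200 TPM. The members passing this filter include those that pass through the higher group, and the targets were chosen with this contrast known.

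In BMDMs with LPS the target sums of both siRNAs overlapped those of control siRNA, as their Ifnb1 values did. With LPS the target sum was 4924 ± 186 TPM with Ctbp2 siRNA, 4543 ± 301 TPM with Ctbp1 siRNA and 5288 ± 700 TPM with control siRNA (SD, n = 3 each). With LPS in control siRNA cells 26 of the 31 targets rose and 1 fell (Oas3). Over all genes tested 23.3% were called higher and 53.1% lower. The median log2 fold change of the targets was 1.14, against −0.21 over all genes. After median-of-ratios scaling 29 rose and none fell, with Oas3 at −0.07 (adjusted p = 0.582, limma). Ifit1 rose by 3.74, Rsad2 by 3.61, Isg15 by 3.53, Mx1 by 3.48 and Cxcl10 by 7.34 (adjusted p = 4.04e-12, 4.85e-12, 1.5e-12, 4.08e-10 and 3.48e-11, limma). Irf7 changed by 0.17 (adjusted p = 0.358, limma).

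Without LPS, and with Ifnb1 listed at 0 in each library, targets were higher with Ctbp2 siRNA. Their sum was 2413 to 2739 TPM with Ctbp2 siRNA, 1747 to 2070 TPM with Ctbp1 siRNA and 1735 to 2140 TPM with control siRNA, and the Ctbp2 siRNA libraries lay above all of the others. Of the 31 targets 25 had an unadjusted p under 0.05 (limma). After adjustment 10 rose and none fell, where 0.505% of all genes were called higher. The median of the 31 was 0.38, against −0.03 over all genes. Ifi44 rose by 0.93, Ifit3 by 0.91, Ifit2 by 0.87 and Ifit1 by 0.82 (adjusted p = 0.0295, 0.0117, 0.00663 and 0.0247, limma), and Rsad2, Isg15, Rtp4, Xaf1 and Oasl2 were among the others called. The count was 3 and 2 without control siRNA vehicle replicates 1 and 3, and 3, 6 and 2 without Ctbp2 siRNA vehicle replicates 1, 3 and 4. It was 4 with no filter on low values, 14 after median-of-ratios scaling, and 14 without control siRNA vehicle replicate 4. With the replicate number as a block it was 15, and with only the libraries compared 8. Against Ctbp1 siRNA in vehicle, likewise 25 of the 31 had an unadjusted p under 0.05 (limma). Of the 31, 5 were called higher, Ifit2, Ifit3, Rtp4 and Xaf1 among them, where 0.518% of all genes were. The count was between 1 and 12 when single libraries were left out, the most without control siRNA LPS replicate 4 and the fewest without Ctbp1 siRNA replicate 3 or Ctbp2 siRNA replicate 4.

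With Ctbp1 siRNA no target was called in either condition (limma; 1 of 31 in vehicle and 8 of 31 in LPS at an unadjusted p under 0.05), with medians of 0.03 in vehicle and −0.23 in LPS. With Ctbp2 siRNA in LPS none was called either (9 of 31 at an unadjusted p under 0.05, median −0.16). Both siRNAs are compared with the same control libraries. Without control siRNA LPS replicate 4, 2 of the 31 were called lower in LPS with Ctbp2 siRNA and likewise 2 with Ctbp1 siRNA. With the replicate number as a block, 3 of the 31 were called lower in LPS with Ctbp2 siRNA and 0 with Ctbp1 siRNA.

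**Figure D5:**
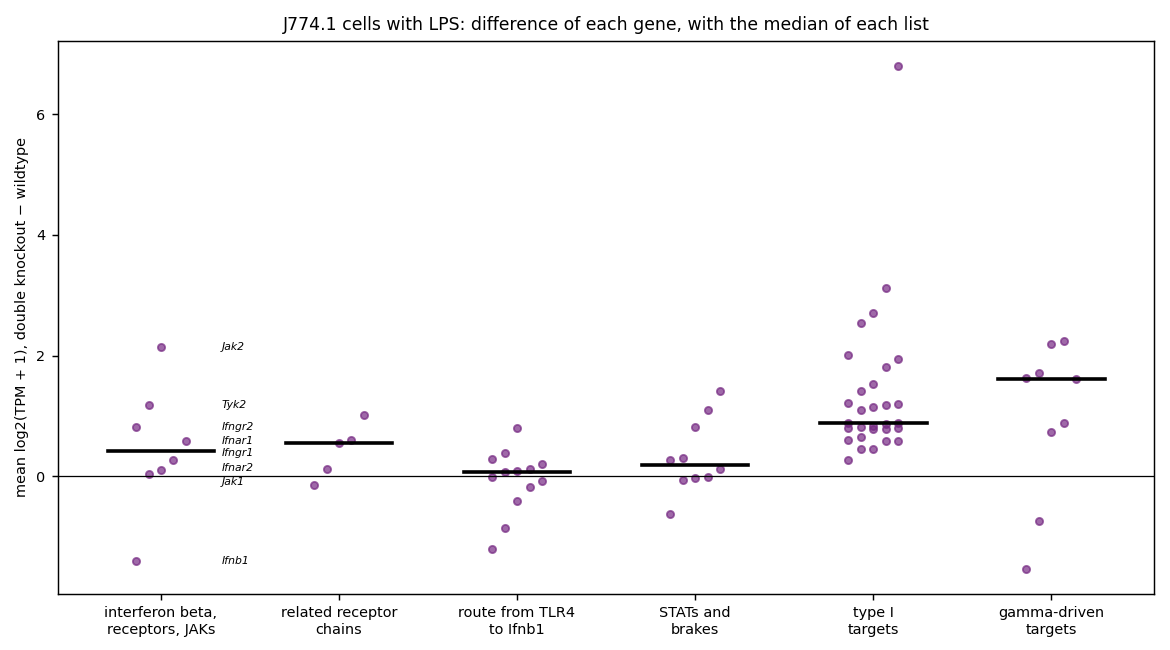
Difference of mean log2(TPM + 1) between double knockout and wildtype J774.1 cells with LPS, for genes averaging 10 TPM or more. Each point is a gene and each bar the median of its list; some genes are in 2 lists. The type I targets lie at or above 0.27, while the route to Ifnb1 lies on both sides of 0 with a median of 0.07.

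The route that leads from TLR4 to Ifnb1 was read from 15 genes. In J774.1 cells 13 reached 10 TPM, of which 5 were higher and 4 lower in the double knockout without overlap (3 and 5 after median-of-ratios scaling), with a median of 0.07. Over all genes 32% were higher and 21.9% lower without overlap, 53.9% in all. Jun, a part of AP-1, averaged 27.4 TPM in double knockout cells and 64.4 TPM in wildtype, Cd14, the LPS co-receptor, 932 and 1684 TPM, and Rela, an NF-kB subunit, 33.4 and 44.8 TPM. Irf3 averaged 66.8 TPM in double knockout cells and 50.7 TPM in wildtype, and Tbk1 63.0 and 54.7 TPM. Ticam1, which codes for TRIF, overlapped at 28.0 and 29.7 TPM. Tlr4 itself was low, at 4.19 to 5.52 TPM in double knockout libraries and 2.07 to 2.51 TPM in wildtype libraries.

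In control siRNA BMDMs 10 of the 15 rose with LPS and 3 fell, with a median of 0.42. Of all genes tested 23.3% were called higher and 53.1% lower there. Cd14 rose by 2.60, Nfkb1 by 2.41, the kinase gene Ikbke by 2.25 and Ticam1 by 0.76 (adjusted p = 3.11e-14, 1.55e-15, 1.91e-14 and 8.16e-10, limma). Jun fell by 1.902, Tlr4 by 0.76 and Irf3 by 0.24 (adjusted p = 3.36e-11, 1.45e-06 and 0.00249, limma), the last of which stood at 0.08 after median-of-ratios scaling. No gene of this list was called with either siRNA in vehicle or in LPS against control siRNA in the fit of all libraries. With Ctbp2 siRNA in vehicle 1 was called higher after median-of-ratios scaling, 1 higher without control siRNA vehicle replicate 4 and 1 lower without Ctbp2 siRNA vehicle replicate 4, and in LPS 1 higher without control siRNA LPS replicate 3. Between the siRNAs in LPS, Tlr4 stood at 30.6 to 35.0 TPM with Ctbp2 siRNA, against 23.6 to 26.8 TPM with Ctbp1 siRNA, and was called higher (0.36; adjusted p = 0.0331, limma). That call was lost without any 1 of these 6 libraries (adjusted p = 0.0523 to 0.0929).

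Below the receptors, 11 genes for STATs, IRF9 and inhibitors of the pathway were followed, some of which, such as Stat2, Irf9 and Usp18, are also among the targets above. In J774.1 cells 10 reached 10 TPM, of which 5 were higher and 1 lower without overlap, with a median of 0.19. Over all genes 32% were higher and 21.9% lower in this way, 53.9% in all. Stat2 averaged 116 TPM in double knockout cells and 42.8 TPM in wildtype. Among the inhibitors, Usp18, which blocks IFNAR2, averaged 501 and 234 TPM and the phosphatase gene Ptpn6 143 and 116 TPM, Ptpn1 was lower at 23.8 and 36.8 TPM, and Socs3 overlapped at 219 and 224 TPM. In control siRNA BMDMs 7 of 10 rose with LPS and none fell, where 23.3% of all genes were called higher and 53.1% lower. The largest rise was that of Socs3 (7.93 on the log2 scale, adjusted p = 6.64e-19, limma), which averaged 378 TPM with LPS and 0.542 TPM with vehicle. Ptpn6 fell by 0.19 on the log2 scale with Ctbp2 siRNA in LPS against control siRNA (adjusted p = 0.0217, limma), and was not called after median-of-ratios scaling (−0.11, adjusted p = 0.0933), with only the libraries compared (adjusted p = 0.25), or without control siRNA LPS replicate 4 or Ctbp2 siRNA LPS replicate 1 or 3 (adjusted p = 0.0795, 0.0902 and 0.0811, limma).

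Of 16 genes that interferon gamma also drives, 12 were tested in BMDMs. In control siRNA cells 11 rose with LPS and 1 fell, with a median of 3.23, where 23.3% of all genes rose and 53.1% fell. Gbp2, a GTPase gene, rose by 4.37 and the transcription factor gene Irf1 by 3.17 (adjusted p = 2.05e-15 and 2.66e-17, limma), while Irf8 fell by 2.01 (adjusted p = 2.59e-14, limma). With Ctbp2 siRNA in LPS 3 fell against control siRNA, where 2.4% of all genes were called lower. These were the immunity GTPase genes Igtp (−0.41), Irgm1 (−0.40) and Irgm2 (−0.38; adjusted p = 0.0197, 0.0206 and 0.0416, limma), and none of the 3 was called after median-of-ratios scaling. The calls of Irgm1, Igtp and Irgm2 were each lost without control siRNA replicate 1 or Ctbp2 siRNA replicate 3 as well. In J774.1 cells 9 of the 16 reached 10 TPM, of which 7 were higher in the double knockout and 2 lower without overlap. Their median was 1.61, against 0.03 over all genes, of which 32% were higher and 21.9% lower without overlap. The filter also takes genes that reach it through the higher group alone. Irf1 averaged 57.8 TPM in double knockout cells and 18.1 TPM in wildtype, and Irf8 86.0 and 250 TPM.

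Among 9 related receptor chains and Jak3, the Janus kinase of the common gamma chain, 8 genes were tested in BMDMs. In control siRNA cells 4 rose with LPS and 4 fell (4 and 2 after median-of-ratios scaling). Before that scaling 23.3% of all genes rose and 53.1% fell. The interleukin 6 receptor chains Il6ra and Il6st fell by 3.04 and 1.88 on the log2 scale and Jak3 by 0.35 (adjusted p = 9.33e-12, 7.37e-11 and 0.00125, limma). After median-of-ratios scaling Jak3 stood at −0.04 (adjusted p = 0.618, limma) and was no longer called. In J774.1 cells Jak3 stayed below the filter, at 2.62 TPM in double knockout cells and 2.10 TPM in wildtype. There 5 genes of this list reached 10 TPM, of which 4 were higher in the double knockout without overlap. Their median was 0.55, against 0.03 over all genes, of which 32% were higher without overlap. Il6ra averaged 27.1 TPM in double knockout cells and 12.9 TPM in wildtype.

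The genes whose levels ran most like Ifnb1 were looked for among genes averaging 10 TPM or more. Over the 18 BMDM libraries the highest Pearson correlations of log2(TPM + 1) were those of Usb1 (0.944), Slc25a17 (0.942), Tlk2 (0.935), Smarce1 (0.935) and Elavl1 (0.935), and 605 genes exceeded 0.9, since these libraries divide into LPS and vehicle. Over the 9 LPS libraries they were Acp1 (0.925), Hdhd2 (0.9), Brap (0.865), Hras (0.848) and Arpc5l (0.845), with Acp1 alone above 0.9. These are descriptions over libraries that share their treatment and in which Ifnb1 is near its limit of detection.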

How the data were processed

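PolyA RNA was sequenced from 18 BMDM and 6 J774.1 libraries with an unstranded kit, per the labels' protocols. The deposited per-library values are TPM, for BMDMs made with Salmon on mm39 per the file headers; the build of the J774.1 table is not given in the sources used here. Per the submitters' processing notes the tools were FastQC, Salmon 1.9.0 and DESeq2 1.44.0 in R 4.4.1. The authors' deposited tables also hold a mean normalized count (a signal averaged over libraries), log2 fold changes and p-values. The J774.1 table repeats 281 lines, of which the first was kept.

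The TPM were tested with limma 3.58.1 in R 4.3.3 on log2(TPM + 1), with trend and robust estimation, over all 18 BMDM libraries in 1 fit of 11 comparisons. Genes averaging 10 TPM or more were tested. A gene was called where its p, adjusted by Benjamini-Hochberg over all genes of a comparison, was under 0.05. Fold changes on this scale understate those of low genes. J774.1 values are differences of means of log2(TPM + 1) with no test, and groups are said not to overlap when every library of one lies above every library of the other. The procedure was tested on simulated data.

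Members and lists were chosen with earlier results of these data known. Named from the lists were a fixed set of genes and up to 4 called members with the largest change per comparison; Oas3, Irf8 in BMDMs and called targets beyond 4 were named after their values were seen. Replicates carry the titles' numbers (1, 3 and 4 in BMDMs). Alternatives were another scaling, pseudocount and filter, fits of only the libraries compared, a replicate block and each library left out. Promoter sequences are from RefSeq (GRCm38.p6) and neighbours from GENCODE vM21, neither used with the tables' coordinates. The single values of 1 listed gene are not reported here.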

Additional observations from a re-analysis of the deposited data

Results flagged for a closer look

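The response to LPS differed between Ctbp2 siRNA and control siRNA BMDMs for 4 genes of the interferon target lists, by the interaction term of limma over all genes tested. Of all genes 0.101% were called by this term. The value is the log2 response with Ctbp2 siRNA minus that with control siRNA. It was −1.37 for Ifit2, −1.31 for Ifit3, −0.69 for Xaf1 and −0.69 for Irgm1 (adjusted p = 0.00891, 0.033, 0.0236 and 0.0333, limma). At an unadjusted p under 0.05 (limma) the term held 25 of the 31 type I targets, of which 3 were called. Cxcl10 (0.29) was the only type I target above 0. Of the 12 tested targets that interferon gamma also drives, it held 4, of which 1 was called. Leaving out single libraries gave 0 to 10 called type I targets.

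Ifit2 stood at 99.3 to 116 TPM with Ctbp2 siRNA and LPS, against 124 to 168 TPM with control siRNA and LPS. With vehicle it stood at 52.1 to 62.6 TPM with Ctbp2 siRNA, against 27.1 to 36.1 TPM with control siRNA. The smaller response thus came with a higher level before LPS and a lower one after it. Ifit3 averaged 77.4 TPM with Ctbp2 siRNA and LPS, below its 87.3 TPM with Ctbp2 siRNA and vehicle, while with control siRNA it averaged 102 TPM with LPS and 46.6 TPM with vehicle. After median-of-ratios scaling Ifit2 was still called (adjusted p = 0.0194, limma), and Ifit3, Xaf1 and Irgm1 were not (adjusted p = 0.0595, 0.0694 and 0.0961). With only the libraries compared, Xaf1 and Irgm1 were not called (adjusted p = 0.0612 and 0.0529, limma). The call of Ifit2 was lost with no filter on low values and without control siRNA vehicle replicate 1 (adjusted p = 0.0792 and 0.0508, limma). When each of the 12 libraries of the interaction was left out in turn, the call was lost 9 times for Ifit3, 7 times for Xaf1 and 9 times for Irgm1, with adjusted p up to 0.127, 0.102 and 0.149 (limma).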

How the results depend on the processing

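For the 7 genes tested in BMDMs, the replicate block changed the count of calls in 2 of 11 comparisons. With the block 1 gene was called in place of 0 for Ctbp2 siRNA against control siRNA in LPS (Ifngr1, adjusted p = 0.045), and 6 in place of 5 for LPS with Ctbp1 siRNA (Ifngr2, adjusted p = 0.0491). Among the lists, the block gave 3 type I targets lower in place of 0 for Ctbp2 siRNA in LPS and 15 higher in place of 10 in vehicle, and for the route to Ifnb1 in vehicle 1 higher and 1 lower with Ctbp2 siRNA and 1 lower with Ctbp1 siRNA, in place of 0. Same-numbered libraries of different groups correlated at −0.15 to 0.324 in their deviations, with 21 of 45 pairs above 0.1. Of the pairs with different numbers, 4 of 90 were above 0.1. As a hint from the data, 18 of 18 libraries correlated best on average with their own number. The labels do not say what the numbers share, so the main fit has no block and the block is given as an alternative. Ctbp2 siRNA against Ctbp1 siRNA in LPS, with 1 gene called, gave 0 after median-of-ratios scaling, with no filter and with only the libraries compared. Leaving out single libraries gave 5 to 6 genes for LPS with each siRNA, 0 to 1 for Ctbp2 against Ctbp1 siRNA in LPS, 0 throughout for the other comparisons, and 6 to 7 without overlap in J774.1 cells. After median-of-ratios scaling 3 values turned: Ifnar2 with LPS in Ctbp1 siRNA cells to 0.27 (adjusted p = 0.00103), Irf3 to 0.0841 and Il10rb to 0.00072 in control siRNA cells. The scaling moves the median of all genes, and the cause was not tested otherwise. The alternative of leaving control siRNA LPS replicate 4 out of comparisons that do not use it was chosen after seeing the data. The depth of each library is not known for these TPM, so differences of Ifnb1 near 1 TPM were not set against counting error. The authors' mean normalized count of Ifnb1 over the BMDM libraries, 4.48, is small.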
